A study of Mus musculus with 6 samples.

Results

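In cultured vascular smooth muscle cells of the mouse, 83 genes were detected with miR-128 overexpressed and in neither scrambled control. They were chosen on an Illumina bead array from 16593 named genes. A gene was taken if a probe for it had a detection p under 0.01 on both miR-128 arrays and at or over 0.05 on all 4 scrambled arrays, and if no other probe for it was under 0.05 on any scrambled array. The detection p of a probe is the chance that a probe with no target would be as bright on that array. A probe at or over 0.05 was called not detected, which does not show that its gene was silent. In all 89 genes met these conditions, 0.536% of the named genes, and 6 of them (Asb2, Mustn1, Mrvi1, Myh11, Mylk and Mx2) were left out here by name. Laptm5, also left out by name, did not meet the conditions. Because the detection p of every array chose the genes, the contrast between miR-128 and scrambled arrays is given as a description and was not tested for them.

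The miR-128 group (mir128) held primary vascular smooth muscle cells infected with lentivirus that expresses miR-128. The shScr2 and shScr1 groups held the same kind of cells infected with lentivirus that expresses a scrambled miRNA. All 3 groups shared the strain C57BL/6J, an age of 8 weeks, 2 days of puromycin selection and collection of RNA after 5 days, and each had 2 biological replicates, A and B. The labels do not give the promoter of the virus, the hairpin it carried, the vessel, or whether replicates came from separate animals, so the spread between replicates may be partly technical.

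A microRNA guides an Argonaute protein to messenger RNAs that pair with its seed, the short stretch near its 5′ end, and lowers their translation and stability. Direct targets of a microRNA are therefore expected among the genes that fall, and no target of miR-128 was sought among these 83. Smooth muscle cells can pass between a contractile state, rich in actin-binding and myosin proteins, and a growing state in culture. The mature arms of miR-128 are shown because miR-128 is what the virus was labelled to express, though which of its hairpins, and so which 5p arm, is not given. They have the seed (bases 2 to 8) in capitals, from RefSeq on GRCm38.p6.
mmu-miR-128-3p: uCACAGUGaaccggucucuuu
mmu-miR-128-1-5p: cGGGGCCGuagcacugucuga
mmu-miR-128-2-5p: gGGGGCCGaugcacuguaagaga
The 3p arm is encoded identically by Mir128-1 (chr1:128202404-128202424, plus strand) and by Mir128-2 (chr9:112118644-112118664, minus strand). Its seed, CACAGUG, differs from that of both 5p arms, GGGGCCG.

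The miR-128 arrays detected more probes than the scrambled arrays. At a detection p under 0.01 there were 11900 probes on miR-128 replicate A and 10528 on replicate B, against 9916 to 10441 on the 4 scrambled arrays. The upper quartile of raw intensity was 373 on miR-128 replicate A and 247 on replicate B, while the scrambled arrays had 201 to 252. Replicate B, whose brightness lay within the scrambled range, had to pass the same threshold as replicate A. The part of array brightness in the choice of genes was not tested. Leaving replicate B out of the conditions gave 340 genes in place of 83, and leaving replicate A out gave 98. The opposite set, detected at p under 0.01 on all 4 scrambled arrays and at or over 0.05 on both miR-128 arrays, held 2 genes, Prodh and Ramp2 (0.0121% of named genes), though that set needs 4 detected arrays and not 2. Of the smooth muscle markers, Acta2, Tagln, Smtn and Tpm2 were detected on all 6 arrays, Myh11 on the miR-128 arrays alone, Des on 1 miR-128 array and 2 scrambled arrays, and Cnn1 on none. In such bulk RNA, more cells of a type and more RNA per cell cannot be told apart.

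The 83 genes lay between 4.94 and 7.65 on the miR-128 arrays, whose lowest detected signals were 4.71 (A) and 4.83 (B). Levels are given as log2 signal after background correction with neqc, which adds an offset of 16 before the log, so that these probes read 4.23 to 4.94 where they were not detected. The median over the 83 genes was 5.71 on miR-128 replicate A and 5.73 on replicate B, against 4.51 and 4.50 on the shScr2 arrays and 4.53 and 4.52 on the shScr1 arrays. The median of all detected probes, whose brightness also depends on their sequence, was 7.23 on miR-128 replicate A and 7.50 on replicate B. The groups do not overlap for any of the 83 genes, which the choice fixes.

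**Figure D1:**
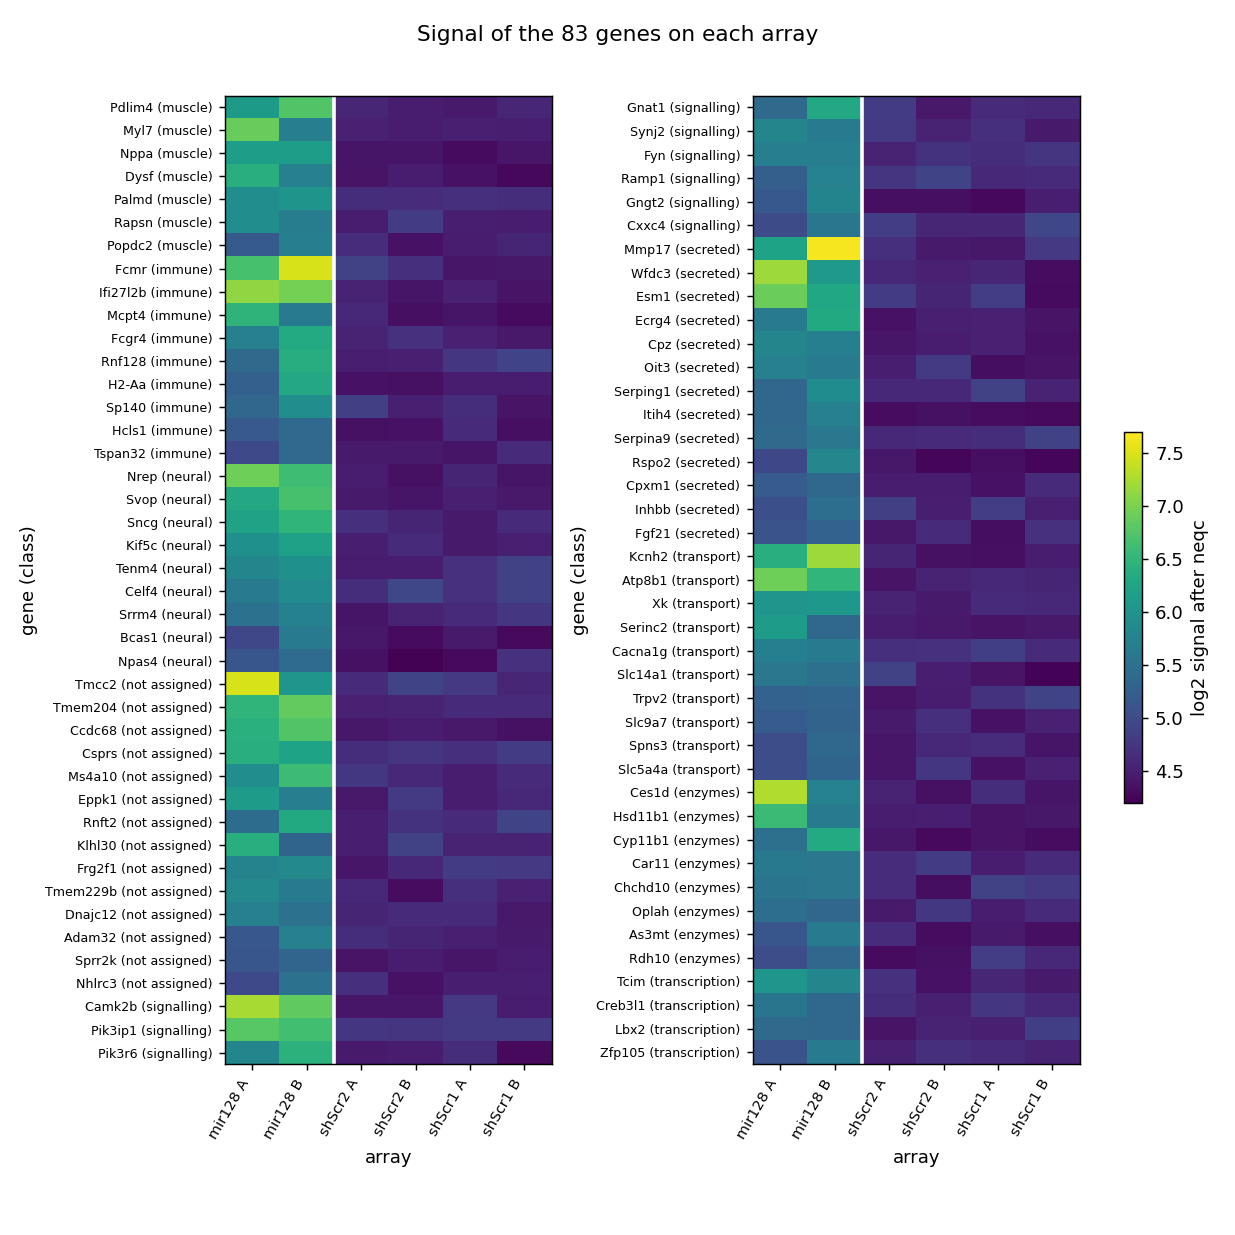
Heat map of log2 signal after neqc for the 83 genes (rows, grouped by class) on the 6 arrays (columns, miR-128 left of the white line). Every row is lighter on both miR-128 arrays than on the scrambled arrays, which stay between 4.23 and 4.94, and which miR-128 replicate is the lighter differs from gene to gene.

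Because no scrambled array detected them, a fold change can only be bounded from below for each gene, as the mean of both miR-128 arrays over the lowest detected signal of the scrambled arrays. That floor is the same for every gene, so bounds follow the signal of each probe and do not rank the true changes. The bounds ran from 1.18-fold to 4.44-fold with a median of 1.78-fold. They were over 2-fold for 30 genes and over 3-fold for 13. Without background correction the measured log2 differences were 0.16 to 1.01, and on the authors' own processed values they were 0.05 to 0.41. On those values, too, all 83 genes had both miR-128 arrays above all 4 scrambled arrays, as did 24.5% of all genes fitted, and nothing is read from that count, since the same arrays chose the genes.

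The 83 genes were sorted by hand, after they were known, into 9 classes by textbook function. The 7 genes of heart, muscle and cytoskeleton had bounds from 1.42-fold to 2.80-fold, over 2-fold for 5. Pdlim4, a PDZ and LIM domain protein of actin stress fibres, was at 6.10 and 6.74 on miR-128 arrays A and B, against 4.58 and 4.47 on shScr2 arrays and 4.45 and 4.57 on shScr1 arrays, at least 2.80-fold higher. Myl7, the regulatory myosin light chain of the atrium, was at 6.89 and 5.69 with miR-128, against 4.52 and 4.48 with shScr2 and 4.51 and 4.49 with shScr1, at least 2.55-fold higher. Its miR-128 arrays differed by 1.19, so its size is imprecise. Nppa, the precursor of atrial natriuretic peptide, had almost the same signal on both miR-128 arrays, 6.16 and 6.15 with miR-128, against 4.39 and 4.40 with shScr2 and 4.30 and 4.41 with shScr1, at least 2.33-fold higher. Dysf, dysferlin, which reseals the muscle cell membrane, was at 6.41 and 5.72 with miR-128, against 4.39 and 4.47 with shScr2 and 4.37 and 4.27 with shScr1, at least 2.18-fold higher. Palmd, palmdelphin, a relative of paralemmin, was at 5.92 and 6.02 with miR-128 and between 4.65 and 4.67 on the scrambled arrays, at least 2.05-fold higher. Rapsn, rapsyn, which clusters acetylcholine receptors at the neuromuscular junction, and Popdc2, a cAMP-binding protein of heart and muscle, were nearest the floor in the class. Rapsn was at 5.92 and 5.69 with miR-128, against 4.46 and 4.80 with shScr2 and 4.50 and 4.48 with shScr1, at least 1.82-fold higher. Popdc2 was at 5.19 and 5.70 with miR-128, against 4.64 and 4.37 with shScr2 and 4.48 and 4.56 with shScr1, at least 1.42-fold higher.

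Genes of striated muscle and targets of the serum response factor, listed with earlier results of these data known, give the setting for Nppa and Popdc2. Of 13 others measured, with Mustn1 and Asb2 left out by name, 7 rose and 0 fell by limma at an adjusted p under 0.05, with a median log2 change of 1.20, while over all 9010 genes fitted 15.6% rose, 13.6% fell and the median was 0.0037. At an unadjusted p under 0.05, 0 had fallen. Scaling the arrays to a common median gave the same counts, 7 and 0. Fhl1, a LIM protein of muscle, rose by 2.49 ± 0.13 (log2 change ± SE; adjusted p = 0.000340 in limma). Nppb, which encodes the sister peptide of Nppa, was detected on all 6 arrays and rose by 3.50 ± 0.32 (adjusted p = 0.00140 in limma). It was at 10.86 and 9.71 with miR-128, against 8.06 and 7.86 with shScr2 and 5.76 and 5.47 with shScr1, so the scrambled groups also stood apart. Acta1, the skeletal actin, was at 10.56 and 8.80 with miR-128, against 6.38 and 6.47 with shScr2, and was not detected with shScr1. Against the mean of both scrambled groups, with the shScr1 arrays at the floor, Acta1 was at least 16-fold higher (adjusted p = 0.00200 in limma). Against shScr2 alone the difference was smaller.

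The 10 channels, transporters and flippases had bounds from 1.18-fold to 3.64-fold. Kcnh2, the pore of the rapid delayed rectifier potassium channel that repolarises the heart, was at 6.40 and 7.19 on miR-128 arrays A and B, against 4.57 and 4.36 on shScr2 arrays and 4.34 and 4.49 on shScr1 arrays, at least 3.64-fold higher. Atp8b1, a flippase of membrane phospholipids, was at 6.93 and 6.50 with miR-128, against 4.38 and 4.53 with shScr2 and 4.60 and 4.56 with shScr1, at least 3.43-fold higher. Both were well above the range of the scrambled arrays on each miR-128 array. Cacna1g, a T-type calcium channel, was at 5.71 and 5.63 with miR-128, against 4.69 and 4.70 with shScr2 and 4.84 and 4.64 with shScr1, at least 1.66-fold higher. Trpv2, a cation channel, was close to the floor at 5.30 and 5.34 with miR-128, against 4.38 and 4.48 with shScr2 and 4.71 and 4.92 with shScr1. Slc14a1, a urea transporter, was at 5.59 and 5.49 with miR-128, at least 1.52-fold higher, with scrambled arrays spread from 4.23 to 4.87. The rest were Xk, the membrane partner of Kell, Serinc2, Slc9a7, an organellar sodium-proton exchanger, Spns3 and Slc5a4a, with bounds from 1.18-fold to 2.16-fold. Among 12 other ion channels and pumps measured, 5 rose and 0 fell, against 15.6% and 13.6% of all genes fitted. At an unadjusted p under 0.05 in limma, 0 of the 12 were lower. The median log2 change of these 12 was 0.15, or −0.14 with arrays scaled to a common median. They included Kcnab1, a potassium channel subunit (1.29 ± 0.14; adjusted p = 0.00225 in limma), Kcnj15, an inward rectifier detected on 3 of the 4 scrambled arrays (1.82 ± 0.21; adjusted p = 0.00266 in limma), and Kcnk2, a background potassium channel (1.66 ± 0.23; adjusted p = 0.00424 in limma).

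**Figure D2:**
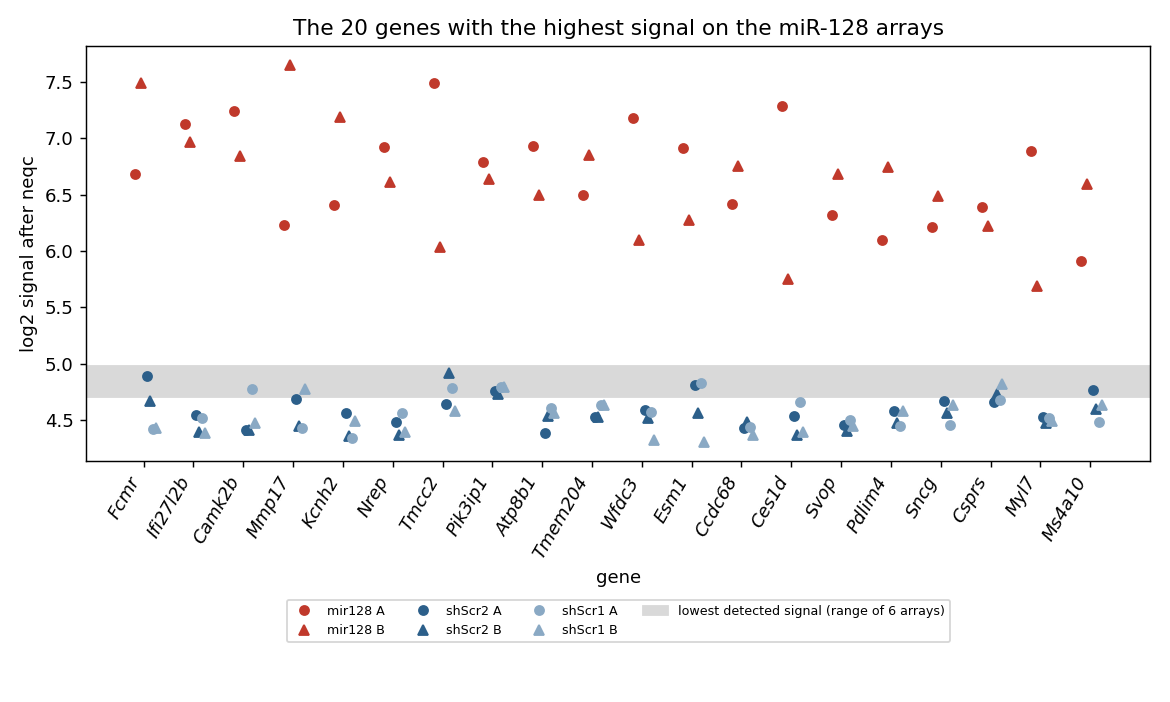
Log2 signal after neqc (vertical axis) on each of the 6 arrays for the 20 genes with the highest mean on the miR-128 arrays; the grey band spans the lowest detected signal of the 6 arrays. Red points (miR-128) lie between 5.69 and 7.65, and blue points (scrambled) lie in or under the band.

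Genes known from immune cells or the interferon response formed a class of 9, with bounds from 1.18-fold to 4.44-fold. Fcmr, the Fc receptor for IgM on lymphocytes, was at 6.68 and 7.49 on miR-128 arrays A and B, against 4.89 and 4.67 on shScr2 arrays and 4.42 and 4.43 on shScr1 arrays, at least 4.44-fold higher. Ifi27l2b, of an interferon-inducible family, was at 7.12 and 6.96 with miR-128, against 4.54 and 4.39 with shScr2 and 4.52 and 4.38 with shScr1, at least 4.31-fold higher. Its close relative Ifi27l2a was detected on all 6 arrays and rose by 3.03 ± 0.20 (adjusted p = 0.000570 in limma), and signal shared between these related genes was not tested. H2-Aa, the alpha chain of an MHC class II molecule, was at 5.28 and 6.31 with miR-128, against 4.38 and 4.36 with shScr2 and 4.48 and 4.47 with shScr1, at least 1.81-fold higher, mainly on replicate B. Mcpt4, a mast cell protease, was at 6.48 and 5.66 and Fcgr4, an Fc receptor for IgG, at 5.72 and 6.34 with miR-128, while the scrambled arrays were at 4.31 to 4.60 and at 4.44 to 4.70. Rnf128 (the ubiquitin ligase GRAIL), Sp140, a nuclear body protein of immune cells, Hcls1, a haematopoietic relative of cortactin, and Tspan32, a tetraspanin of blood cells, had bounds from 1.18-fold to 1.94-fold. In 7 of the 9 genes replicate B was above replicate A. Over all the chosen genes replicate B was the higher for 52 and replicate A for 31. The same detection p asked for a higher log2 signal on B, so nothing is read from the count in this class.

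Markers of leukocytes were looked at beside this class. The defining markers Ptprc and Tyrobp were detected on none of the 6 arrays and Aif1 on 1 miR-128 array and 2 scrambled arrays. The array held 49 leukocyte markers, of which both miR-128 arrays detected 10 and all 4 scrambled arrays 3. The background-corrected intensities of the list summed to 1155 to 1348 on the miR-128 arrays, against 903 to 1049 on the scrambled arrays. Of 12 measured that are not among the 83 genes, 5 rose and 1 fell, against 15.6% and 13.6% of all genes fitted. On the authors' values 2 of the 12 rose and 1 fell. Lyz1, a lysozyme, rose by 1.92 ± 0.23 (adjusted p = 0.00300 in limma), Arhgdib by 0.90 ± 0.16 (adjusted p = 0.00991 in limma), and Cd14, a lipopolysaccharide receptor, was at −1.10 ± 0.18 (adjusted p = 0.00717 in limma), the member that fell. Interferon-response genes, with Mx2 left out by name, had 18 of 35 measured members higher and 0 lower, against the same 15.6% and 13.6%. At an unadjusted p under 0.05 in limma, 0 of them were lower. On the authors' values 12 of them were higher and 0 lower. The part of other cells in the signal of these 9 genes was not tested.

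The 13 genes of secreted and matrix proteins had bounds from 1.20-fold to 4.02-fold. Mmp17, a matrix metalloproteinase anchored in the membrane, was at 6.23 and 7.65 on miR-128 arrays A and B, against 4.69 and 4.45 on shScr2 arrays and 4.43 and 4.77 on shScr1 arrays, at least 4.02-fold higher. Replicate A minus replicate B was −1.43, so its size is imprecise. Wfdc3, a small WAP domain protein, was at 7.19 and 6.10 with miR-128, against 4.59 and 4.52 with shScr2 and 4.57 and 4.32 with shScr1, at least 3.26-fold higher. Esm1, endocan, a proteoglycan released by endothelial cells, was at 6.91 and 6.28 with miR-128, against 4.81 and 4.56 with shScr2 and 4.83 and 4.30 with shScr1, at least 3.16-fold higher. Ecrg4, the precursor of the peptide augurin, was at 5.63 and 6.33 with miR-128, at least 2.07-fold higher. The signalling ligands of the class were all near the floor. Rspo2, a secreted amplifier of Wnt signalling, was at 4.95 and 5.82 with miR-128, against 4.43 and 4.27 with shScr2 and 4.35 and 4.25 with shScr1. Inhbb, the beta B subunit of activin and inhibin, was at 5.05 and 5.46 with miR-128, against 4.86 and 4.49 with shScr2 and 4.84 and 4.51 with shScr1. Fgf21, a metabolic hormone, was at 5.10 and 5.30 with miR-128, against 4.43 and 4.62 with shScr2 and 4.32 and 4.70 with shScr1. Each was at least 1.20-fold to 1.37-fold higher by its bound. Replicate B gave the higher value in all 3, and nothing is read from that. No chosen gene was under 5.30 on replicate B, and all 3 were under it on replicate A, so the choice fixed this order. The others were Cpz and Cpxm1, of the carboxypeptidase family, Oit3, Itih4, the serpin Serpina9 and Serping1, the C1 inhibitor of complement, with bounds from 1.28-fold to 1.76-fold.

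Of 52 other growth factors, cytokines and secreted signals measured, 19 rose and 7 fell, against 15.6% and 13.6% of all genes fitted. The median log2 change of these 52 was 0.41. With arrays scaled to a common median, 16 rose and 10 fell. Il15, a cytokine for lymphocytes, rose by 2.15 ± 0.14 (adjusted p = 0.000643 in limma) and was detected on 3 of the 4 scrambled arrays. Tgfb3 rose by 1.92 ± 0.16 (adjusted p = 0.00105 in limma) and Edn1, the precursor of endothelin, by 1.71 ± 0.17 (adjusted p = 0.00186 in limma). Endothelial markers, listed because Esm1 is known from those cells, numbered 23 on the array, 6 seen on both miR-128 arrays and 4 on every scrambled array, and their intensities summed to 1052 to 1455 on the miR-128 arrays, against 1143 to 1321 on the scrambled arrays. Of the defining endothelial markers Kdr was detected on all 6 arrays and Cdh5 on none, Pecam1 on 1 miR-128 array, and Tek on 1 miR-128 array and 2 scrambled arrays.

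Intracellular signalling gave 9 genes, with bounds from 1.28-fold to 4.31-fold. Camk2b, the beta subunit of calmodulin-dependent kinase II, was at 7.25 and 6.84 on miR-128 arrays A and B, against 4.41 and 4.41 on shScr2 arrays and 4.78 and 4.47 on shScr1 arrays, at least 4.31-fold higher. A pair of regulators of PI3 kinase were among them. Pik3ip1, which inhibits the enzyme, was at 6.79 and 6.64 with miR-128, against 4.75 and 4.73 with shScr2 and 4.80 and 4.79 with shScr1, at least 3.44-fold higher. Pik3r6, a regulatory subunit of PI3 kinase gamma, was at 5.81 and 6.45 with miR-128, against 4.45 and 4.47 with shScr2 and 4.65 and 4.29 with shScr1, at least 2.29-fold higher. Ramp1, which joins the calcitonin receptor-like receptor to form the receptor for the vasodilator CGRP, was close to the floor at 5.26 and 5.76 with miR-128, against 4.73 and 4.92 with shScr2 and 4.61 and 4.62 with shScr1. Fyn, a kinase of the Src family, Synj2, a phosphoinositide phosphatase, Gnat1 and Gngt2, subunits of the transducins of the retina, and Cxxc4, an inhibitor of Wnt signalling, had bounds from 1.28-fold to 1.90-fold. Among 12 other receptors of vasoactive agents measured, 2 rose and 2 fell, close to the 15.6% and 13.6% over all genes fitted. P2ry6, a receptor for UDP, rose by 2.10 ± 0.25 (adjusted p = 0.00289 in limma) and Npr3, the clearance receptor of natriuretic peptides, by 1.08 ± 0.13 (adjusted p = 0.00306 in limma). Bdkrb1, a bradykinin receptor, was detected on all 4 scrambled arrays and on neither miR-128 array.

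**Figure D3:**
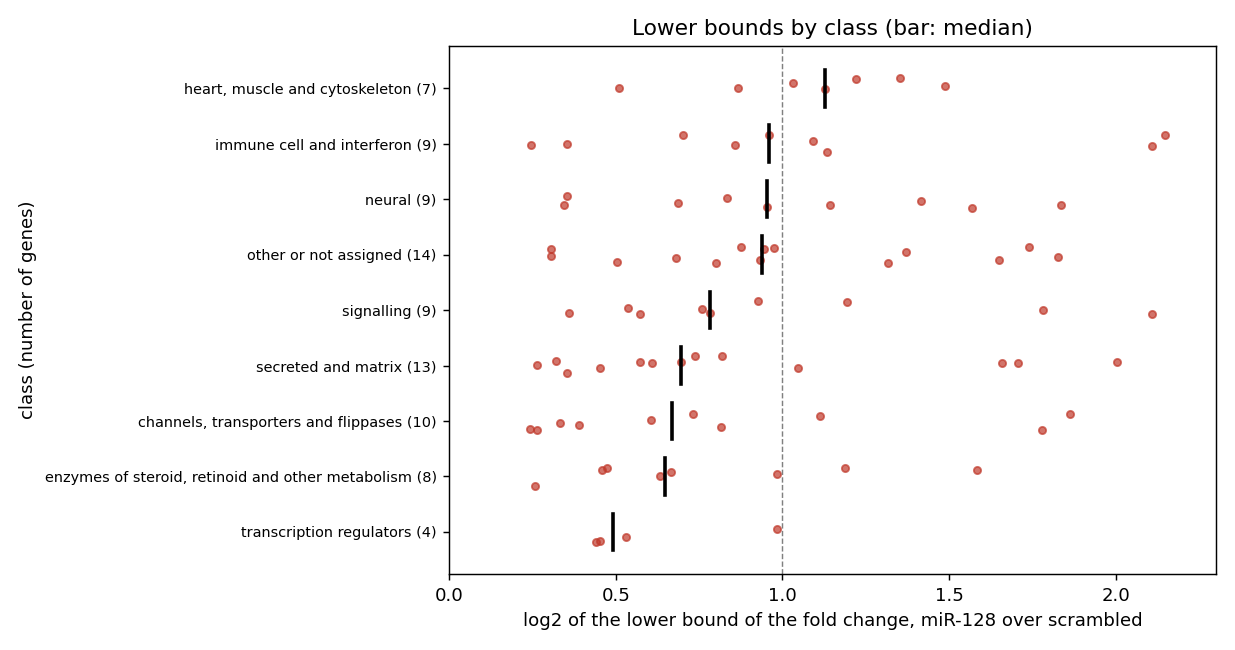
Lower bound of the fold change, miR-128 over scrambled, as its log2 for each of the 83 genes (points), by class (rows), with the class median as a bar and 2-fold (log2 of 1) as a dashed line. The medians run from 1.40-fold in transcription regulators to 2.18-fold in heart and muscle genes, and the classes overlap widely.

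Enzymes of steroid, retinoid and other metabolism numbered 8, with bounds from 1.20-fold to 3.00-fold. Ces1d, a carboxylesterase of lipid metabolism, was at 7.29 and 5.75 on miR-128 arrays A and B, against 4.53 and 4.36 on shScr2 arrays and 4.66 and 4.40 on shScr1 arrays, at least 3.00-fold higher, and had the widest gap between miR-128 arrays of the 83 genes, 1.54. It belongs to a family of closely related genes, so its signal may be shared. A pair of enzymes that form active glucocorticoid were in the class. Hsd11b1, which regenerates active glucocorticoid inside cells, was at 6.59 and 5.66 with miR-128, against 4.46 and 4.49 with shScr2 and 4.39 and 4.42 with shScr1, at least 2.28-fold higher. Cyp11b1, which makes glucocorticoid in the adrenal cortex, was at 5.49 and 6.34 with miR-128, against 4.43 and 4.29 with shScr2 and 4.38 and 4.32 with shScr1, at least 1.98-fold higher. Replicate A was the higher of the pair for Hsd11b1 and replicate B for Cyp11b1. Rdh10, which opens the path from retinol to retinoic acid, Oplah of the glutathione cycle, As3mt, an arsenic methyltransferase, Car11 and the mitochondrial protein Chchd10 had bounds from 1.20-fold to 1.59-fold. Of 15 other lipid and eicosanoid enzymes measured, 6 rose and 1 fell, against 15.6% and 13.6% of all genes fitted. Ephx2, soluble epoxide hydrolase, detected on 3 of the 4 scrambled arrays, rose by 1.33 ± 0.19 (adjusted p = 0.00446 in limma). Cyp27a1, a sterol hydroxylase, was at 6.999 and 6.196 with miR-128, against 5.39 on the 1 scrambled array that detected it, shScr1 replicate A. Against the mean of the scrambled arrays it was at least 2.90-fold higher with the other 3 at the floor (adjusted p = 0.00714 in limma). Cyp27a1 entered the fit only with the help of the miR-128 arrays, so this p is a description. Lpl, lipoprotein lipase, was at 8.44 and 9.60 with miR-128, against 6.58 and 6.62 with shScr2 and 8.19 and 8.22 with shScr1, so the scrambled groups stood apart and replicate A lay near shScr1. Against the mean of both scrambled groups Lpl had a log2 change of 1.62 ± 0.31 (adjusted p = 0.0119 in limma), which did not pass on the authors' values (adjusted p = 0.0554 in limma).

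Another 9 genes are best known from neurons or glia, with bounds from 1.27-fold to 3.57-fold. Nrep, also called P311, was at 6.93 and 6.62 on miR-128 arrays A and B, against 4.48 and 4.36 on shScr2 arrays and 4.57 and 4.40 on shScr1 arrays, at least 3.57-fold higher. Svop, a protein of synaptic vesicles, was at 6.32 and 6.69 with miR-128, against 4.46 and 4.40 with shScr2 and 4.50 and 4.44 with shScr1, at least 2.96-fold higher. Sncg, gamma-synuclein, was at 6.22 and 6.49 with miR-128, against 4.67 and 4.56 with shScr2 and 4.46 and 4.63 with shScr1, at least 2.67-fold higher. All 3 were over the scrambled range by more than 1.5 on each miR-128 array. Srrm4, the splicing factor of neural microexons, was at 5.51 and 5.74 with miR-128, against 4.40 and 4.54 with shScr2 and 4.61 and 4.75 with shScr1, at least 1.61-fold higher. Kif5c, a neuronal kinesin, Tenm4, a teneurin, Celf4, an RNA-binding protein, Bcas1, known from myelinating cells, and Npas4, a transcription factor induced by neuronal activity, had bounds from 1.27-fold to 2.21-fold. Both miR-128 arrays detected 5 and all scrambled arrays 4 of 25 Schwann and neural markers on the array, and their intensities summed to 760 to 873 on the miR-128 arrays, against 493 to 633 on the scrambled arrays. The part of other cells was not tested for this class either.

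The 4 transcription regulators, Creb3l1 (OASIS, released from the endoplasmic reticulum membrane), the homeobox gene Lbx2, the zinc finger gene Zfp105 and Tcim, had bounds from 1.36-fold to 1.98-fold. The remaining 14 genes had no assigned class and bounds from 1.24-fold to 3.55-fold. Tmcc2, a transmembrane coiled-coil protein, was at 7.49 and 6.04 on miR-128 arrays A and B, against 4.64 and 4.92 on shScr2 arrays and 4.78 and 4.58 on shScr1 arrays, at least 3.55-fold higher, with replicate A above replicate B by 1.46. Tmem204, a claudin-like membrane protein, was at 6.50 and 6.86 with miR-128, against 4.52 and 4.53 with shScr2 and 4.63 and 4.63 with shScr1, at least 3.34-fold higher. Ccdc68 was at 6.42 and 6.75 with miR-128, against 4.43 and 4.48 with shScr2 and 4.44 and 4.36 with shScr1, at least 3.14-fold higher. These 3 were clear of the floor on both miR-128 arrays. Csprs was at 6.39 and 6.22 with miR-128 and 4.66 to 4.81 on the scrambled arrays, and Ms4a10 at 5.91 and 6.59 with miR-128, against 4.48 to 4.76 on the scrambled arrays. Eppk1 (epiplakin), Klhl30, Rnft2, Frg2f1, Tmem229b, Dnajc12, Adam32, Sprr2k and Nhlrc3 had bounds from 1.24-fold to 1.96-fold. Sprr2k, Frg2f1, Csprs and Mcpt4 belong to families of related genes, so signal shared with relatives was not separated.

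Further lists of genes were counted on the same arrays, and the part of other cells in the signal of the 83 genes was not tested. For reading their counts, 15.6% of all genes fitted rose and 13.6% fell. Of 13 smooth muscle contractile genes measured, with Myh11, Mylk and Mrvi1 left out by name, 9 rose and 0 fell (0 lower at an unadjusted p under 0.05 in limma), with a median log2 change of 1.07. Targets of p53 and senescence genes had 16 of 30 higher and 1 lower, and epithelial and mesothelial markers 6 of 16 higher and 2 lower. Fibroblast markers had 4 of 15 higher and 2 lower, and 4 higher and 4 lower without background correction, with a common median and on the authors' values. Schwann and neural markers had 2 of 8 higher and 1 lower, or 3 and 2 with the replicate block, and endothelial markers 0 of 7 higher (1 at an unadjusted p under 0.05 in limma) and 1 lower. Adipocyte markers had 2 of 5 higher and 0 lower and chondrocyte and osteoblast markers 0 of 4 in either direction, or 1 higher with the replicate block, with 0 adipocyte markers lower and 1 chondrocyte marker changed at an unadjusted p under 0.05 in limma. The defining markers Dcn and Pdgfra of fibroblasts and Cdh1 and Upk3b of epithelium and mesothelium were detected on all 6 arrays, Msln on 5, Lum of fibroblasts on 1 miR-128 array, and Adipoq, Plin1 and Cidec of adipocytes on none.

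Detection on both miR-128 arrays was a condition, but the size of the signal was not matched between them. Replicate A minus replicate B ran from −1.43 to 1.54 with a median of −0.20, against a median of −0.0017 over all genes fitted. Replicate A was the higher for 31 of the 83 genes (37.3%), against 49.8% of all genes fitted, and replicate B for 52. The lowest signal of the 83 genes was 4.94 on replicate A and 5.30 on replicate B. The same detection p thus asked for a higher log2 signal on B, so the choice favours B and nothing is read from this tilt. The 5 widest gaps were in Ces1d, Tmcc2, Mmp17, Myl7 and Wfdc3. The smallest were in Fyn and Nppa, at −0.01 and 0.01. The SD of the miR-128 pair had a median of 0.261 and the SD of the 4 scrambled arrays, none of which detected these probes, 0.129.

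**Figure D4:**
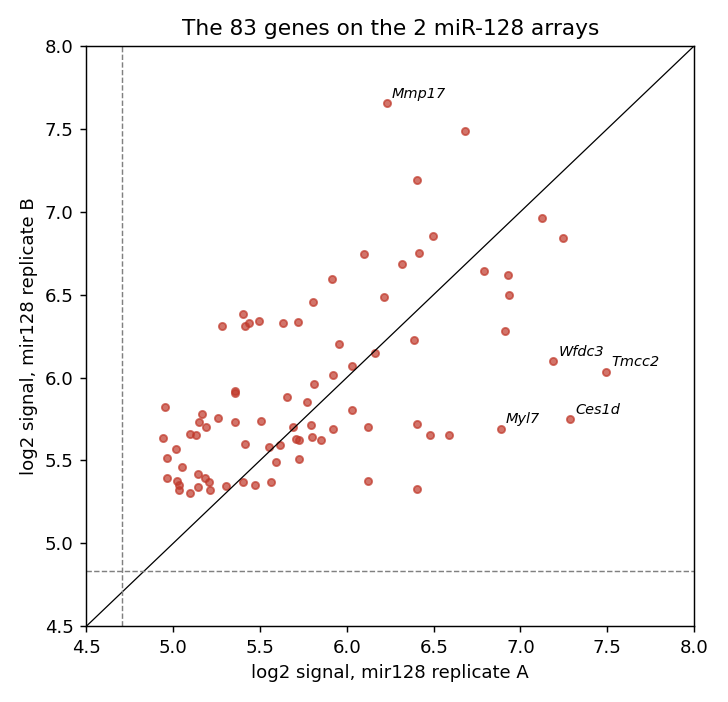
Log2 signal after neqc on miR-128 replicate A (horizontal axis) and replicate B (vertical axis) for the 83 genes, with the line of equality and, dashed, the lowest detected signal of each array. All points lie above both dashed lines, 52 lie above the line of equality, and the 5 labelled genes have the widest gaps.

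The choice asked for 1 probe of a gene on the miR-128 side, so its other probes were read too. For 59 genes the array held 1 probe, and for 24 it held more, with 34 other probes in all. Of these 34, 10 were detected at p under 0.05 on both miR-128 arrays, 5 on 1 and 19 on neither. Of the 10, 8 met the conditions themselves, so their detection is part of the choice and nothing is read from it. A second probe was detected on both miR-128 arrays for 8 genes: Kcnh2, Pik3r6, Hsd11b1, Dysf, Palmd, Rapsn, Srrm4 and Slc14a1. The second probe of Kcnh2 was at 6.65 and 6.34 with miR-128, against 4.49 and 4.46 with shScr2 and 4.52 and 4.55 with shScr1, while the last of its probes was at 4.49 and 4.51. Both miR-128 arrays detected 3 of the 4 probes of Hsd11b1, and the last, at 4.44 and 4.52, was detected on neither. Slc14a1 had all 3 of its probes detected on both. For the other 16 genes no second probe was detected on both miR-128 arrays, and the 2 other probes of Fyn had a mean difference, miR-128 minus scrambled, of 0.0040 and −0.02. Whether such probes fail or read other transcripts was not tested.

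**Figure D5:**
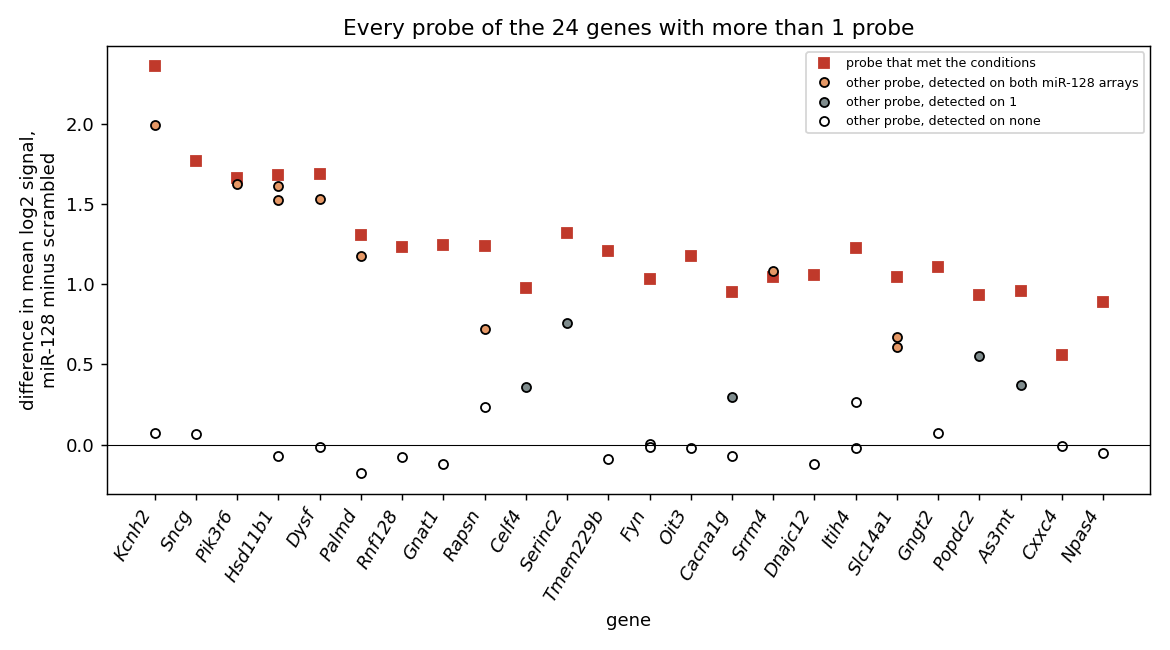
Difference in mean log2 signal, miR-128 minus scrambled, for each probe of the 24 genes with more than 1 probe (red squares: the probe that met the conditions; circles: other probes, filled by the number of miR-128 arrays that detected them). Open circles lie between −0.18 and 0.26, and orange circles, in 8 genes, lie between 0.61 and 1.99.

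RefSeq promoters, from 250 bases before to 50 after a gene's start, were at hand for 50 of the 83 genes, 62 promoters in all, among 32851 on GRCm38.p6. A CArG box, the site known to bind the serum response factor, was found on either strand in 2 of the 62, those of Myl7 and Rnf128, or 3.23%, against 1.63% of all promoters. The core of the interferon-stimulated response element, GAAA and again GAAA with 2 bases of any kind between them, on either strand, was in 3, those of Fcgr4, Inhbb and Tenm4, or 4.84%, against 3.44%. TATAAA on either strand was in 10, or 16.1%, against 13.6%. A match of letters is a description and not a bound site. The promoters of Myl7 and Nppa are shown, since both encode proteins of the atrium detected on the miR-128 arrays alone, with the CArG box of Myl7 and the TATAAA of Nppa in capitals (chr11:5898733-5899032, minus strand, and chr4:148000472-148000771, plus strand).
Myl7: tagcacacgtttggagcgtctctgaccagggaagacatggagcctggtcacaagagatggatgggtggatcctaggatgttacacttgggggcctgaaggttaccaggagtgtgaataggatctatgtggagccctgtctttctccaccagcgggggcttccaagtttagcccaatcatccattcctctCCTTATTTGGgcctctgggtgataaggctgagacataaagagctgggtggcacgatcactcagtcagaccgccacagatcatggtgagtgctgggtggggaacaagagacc
Nppa: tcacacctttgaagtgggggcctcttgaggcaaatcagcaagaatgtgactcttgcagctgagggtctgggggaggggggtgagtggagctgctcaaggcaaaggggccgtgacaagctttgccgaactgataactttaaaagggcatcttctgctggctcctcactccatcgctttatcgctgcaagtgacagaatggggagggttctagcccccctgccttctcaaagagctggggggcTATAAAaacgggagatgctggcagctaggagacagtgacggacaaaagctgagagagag
The CArG box of Myl7 begins 61 bases before the annotated start, and TATAAA begins 9 bases before that of Nppa.

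The line between detected and not was narrow for the dimmest genes on the miR-128 side, and for some bright genes too on the scrambled side. Just inside it, Slc5a4a, Fgf21 and Slc9a7 had a highest detection p of 0.00877 on the miR-128 arrays. Just outside, Slc38a11, Rfxank and Arap3 had a highest p just over 0.01, up to 0.0113 for Arap3, and no detected scrambled array. On the scrambled side, Chchd10, Celf4 and Serping1 were inside with a lowest p of 0.0514, 0.0526 and 0.0526, and Fam221a, Abi3 and Rtn2 outside with 0.0489 each. Of these, Abi3 was at 6.87 and 7.55 on the miR-128 arrays. The brightest genes, Fcmr, Ifi27l2b and Camk2b, had a lowest detection p on the scrambled arrays of 0.0539, 0.218 and 0.0727. A stricter threshold of 0.005 on the miR-128 arrays kept 55 of the 83 genes. A stricter 0.10 on the scrambled arrays kept 43, without Fcmr and Camk2b.

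Between the scrambled groups none of the 83 genes differed in limma at an adjusted p under 0.05, as was so for all but 8 of the 9010 genes fitted (0.0888%), or all but 1 with the replicate letter as a block. At an unadjusted p under 0.05 there was 1, Trpv2 (shScr2 minus shScr1 −0.39 ± 0.16, SE; adjusted p = 0.431 in limma), against 11.5% of all genes. Since neither scrambled group detected these probes, this says only that they stayed near or at background in both. Weak signal there was not tested.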

How the data were processed

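Labelled cRNA from 6 samples, 2 in each of 3 groups, was read on Illumina bead arrays of 25697 probes. The deposited non-normalized table gives, per the file headers, a linear intensity and a detection p-value per probe and array. The authors' second deposited table is on a log2-like scale, with transform and normalization not given in the sources used here. GenomeStudio 2011.1 and the packages limma and lumi appear in the submitters' processing notes. Symbols came from the platform annotation, and 1719 probes had none.

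Intensities were corrected with neqc (limma 3.58.1, R 4.3.3; offset 16) and quantile normalized. Probes under 0.05 on at least 2 arrays were kept, and the brightest probe of each gene entered lmFit and eBayes with a mean per group (9010 genes; Benjamini-Hochberg, two-sided, threshold 0.05). All 83 genes passed this filter through the miR-128 arrays. Genes such as Cyp27a1, detected on 1 scrambled array, also needed those arrays to pass. Such genes are in the list counts and in the shares over all genes fitted. The 3 groups share 1 estimate of the spread, to which a group left with 1 array adds nothing. Over the genes fitted, the SD of replicate A minus B was 0.527 for miR-128, 0.310 for shScr2 and 0.283 for shScr1. The SEs given may therefore be too small for the miR-128 arrays. For the 83 genes the brightest probe that met the conditions is given. In every pair of groups the differences between replicates A and B correlated weakly across genes (r = 0.150, 0.128 and 0.119). The labels give these letters, and what arrays of the same letter share was not tested. A fit with the replicate letter as a block was run beside the main fit, which had no block. The main fit was tested on simulated data. The 83 genes, the 15 gene lists and the rule for named genes (the 20 brightest, the 5 with the widest replicate gap, up to 3 per list, those at the threshold, those with a second detected probe, and 3 other genes per list by p) were chosen with earlier results of these data known. Other genes were named to complete each class. Precision is limited by the number of arrays.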

Additional observations from a re-analysis of the deposited data

How the results depend on the processing

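The number of genes was 225 with a detection p under 0.05 on the miR-128 arrays, 55 with under 0.005, 43 with at or over 0.10 on the scrambled arrays and 104 when other probes of a gene were ignored, and leaving out 1 array gave 94 to 340, the highest without miR-128 replicate B. The median level of the 83 genes, 5.77, was 7.18 without background correction, 5.72 with arrays scaled to a common median and 7.88 on the authors' table, and 5.71 to 5.77 with 1 array left out. The median log2 bound, 0.83, was 0.26 without background correction and 0.72 with a common median, the plain difference on the authors' table was 0.14, and it was 0.77 to 0.85 with 1 array left out, so its size rests on the background correction. Genes called between miR-128 and scrambled arrays numbered 2630 (1408 higher, 1222 lower). With a common median, which moved the median of all genes to −0.14, they were 2637 (1064 higher, 1573 lower), with the replicate block 2632, and without 1 array 1213 to 3451. Without shScr1 replicate A or B the count was 1216 or 1213, and without shScr2 replicate A or B 1405 or 1433, where 1 group is left with a lone array that is assumed to vary like the others. Between the scrambled groups the 8 calls became 29 without background correction, 19 on the authors' table and 1 with the replicate block. Without 1 array they were 0 to 228, the highest without either miR-128 array, and the cause was not tested. The replicate block, run on these 2 counts and, after the data were seen, on the 15 lists, moved only the counts of Schwann and chondrocyte markers by over 1.5 times (2 in place of 1 lower, and 1 in place of 0 higher). On the authors' values, 3 ion channels (5 here), 2 leukocyte markers (5), 3 epithelial and mesothelial markers (6) and 1 adipocyte marker (2) rose, and 4 secreted signals (7), 1 vasoactive receptor (2), 1 epithelial and mesothelial marker (2) and 4 fibroblast markers (2) fell. Without background correction 4 secreted signals and 4 fibroblast markers fell, and with a common median 4 fibroblast markers. Signals this near background limit every size given.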

Other observations

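Of 126 probes that met the conditions probe by probe, 6 carried no gene symbol. The brightest of these was at 5.90 and 6.14 on miR-128 arrays A and B, against 4.34 and 4.51 with shScr2 and 4.47 and 4.39 with shScr1. A further 22 probes, of 21 genes, were set aside because another probe of their gene was detected on a scrambled array. They include probes of Tnc, tenascin C, of Mrtfb, a coactivator of the serum response factor, and of Igfbp2, an IGF-binding protein, named after their values were seen. The probe of Igfbp2 was at 6.87 and 8.38 with miR-128, against 4.39 and 4.67 with shScr2 and 4.57 and 4.67 with shScr1, and that of Tnc at 5.43 and 5.86, against 4.52 and 4.56 with shScr2 and 4.57 and 4.55 with shScr1. The 2 genes of the opposite set were Prodh, proline dehydrogenase, at 4.63 and 4.59 with miR-128, against 5.70 and 5.89 with shScr2 and 5.59 and 5.67 with shScr1, and Ramp2, a relative of Ramp1 that forms adrenomedullin receptors, at 4.70 and 4.60 with miR-128, against 5.86 and 6.33 with shScr2 and 5.59 and 5.87 with shScr1. Ramp1 thus lay on the detected side of the miR-128 arrays alone and Ramp2 on that of the scrambled arrays alone. For Ramp1 the line was narrow, with a lowest detection p of 0.0551 on the scrambled arrays and a bound of 1.49-fold.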
